A study of Mus musculus with 8 samples.

Results

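The later steps of mitochondrial beta-oxidation were examined through 8 genes: Hadha, Hadhb, Echs1, Hadh, Acaa2, Eci1, Eci2 and Decr1. The region of each gene was its mm10 gene body and 20 kb on each side, and its members were the H3K27ac intervals of both deposited peak lists that touched it. The regions held 34 of the 81522 distinct DMSO intervals and 110 of the 253423 distinct EnPGC-1 intervals. Hadha and Hadhb are neighbours, so the 8 genes gave 7 separate regions. H3K27ac, acetylation of lysine 27 of histone H3, is a mark of active promoters and enhancers, and was mapped by ChIP-seq. All cells were CD8+ T cells from lymph node and spleen of C57BL/6 mice, stimulated with antibodies to CD3 and CD28. One group was kept for 48 h with EnPGC-1, which the labels class among PIPs, and the other with the vehicle DMSO. The age of the mice is not given in the sources used here. Each treatment had 2 H3K27ac samples but 1 peak list, so all values below come from 1 list per treatment, without a spread between replicates and without a test. The depth of sequencing is unknown here, and the number of intervals called depends on it.

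In mitochondrial beta-oxidation, an acyl-CoA is first dehydrogenated, and the product is then hydrated, oxidised again and cleaved by a thiolase to release acetyl-CoA. Hadha and Hadhb encode the alpha and beta subunits of the mitochondrial trifunctional protein, which carries out the later steps on long chains. Echs1, Hadh and Acaa2 encode the hydratase, the hydroxyacyl-CoA dehydrogenase and the thiolase for shorter chains. Eci1, Eci2 and Decr1 encode the isomerases and the reductase that let unsaturated fatty acids enter the same cycle. The coactivator PGC-1 is known to raise the expression of beta-oxidation genes together with PPAR and estrogen-related receptors, which is the background for examining them in cells treated with EnPGC-1.

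Sequence was shown for the 3 starts that lay inside an EnPGC-1 interval but near no DMSO interval: Echs1, Eci1 and Eci2. It was also shown for the stretch between the diverging starts of Hadha and Hadhb, which no interval of either list covered. Each sequence holds the 250 bases before the transcription start, 5′ to 3′ on the strand of the gene, from RefSeq (GRCm38.p6, the coordinates of mm10). Capitals mark GGGCGG, the GC box bound by SP factors, and CCAAT, the box bound by NF-Y, on either strand, so that CCGCCC is a GC box on the other strand.
Hadhb, chr5:30155003-30155252, plus strand: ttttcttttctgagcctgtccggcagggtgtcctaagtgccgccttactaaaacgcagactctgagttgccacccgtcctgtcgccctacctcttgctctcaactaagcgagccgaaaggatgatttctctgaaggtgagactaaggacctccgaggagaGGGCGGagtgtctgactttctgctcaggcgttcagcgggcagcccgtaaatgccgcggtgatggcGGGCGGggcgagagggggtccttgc
Echs1, chr7:140116422-140116671, minus strand: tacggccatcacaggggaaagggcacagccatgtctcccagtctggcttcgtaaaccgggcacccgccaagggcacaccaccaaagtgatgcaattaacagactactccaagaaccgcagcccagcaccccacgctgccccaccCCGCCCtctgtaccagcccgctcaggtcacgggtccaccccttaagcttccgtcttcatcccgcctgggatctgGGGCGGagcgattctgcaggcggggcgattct
Eci1, chr17:24426433-24426682, plus strand: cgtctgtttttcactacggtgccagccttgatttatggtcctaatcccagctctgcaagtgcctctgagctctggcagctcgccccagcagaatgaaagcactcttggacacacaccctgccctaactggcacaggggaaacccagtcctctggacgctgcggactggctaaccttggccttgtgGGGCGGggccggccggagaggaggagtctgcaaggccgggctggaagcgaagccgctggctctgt
Eci2, chr13:34994145-34994394, minus strand: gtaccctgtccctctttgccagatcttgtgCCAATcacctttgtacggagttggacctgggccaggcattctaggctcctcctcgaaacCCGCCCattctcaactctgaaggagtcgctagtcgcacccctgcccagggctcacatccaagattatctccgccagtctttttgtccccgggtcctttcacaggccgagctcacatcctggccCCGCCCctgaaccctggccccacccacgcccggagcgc

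Of these bases, the EnPGC-1 list covered 250 of 250 before Echs1, 184 before Eci1, 157 before Eci2 and 0 before Hadhb, and the DMSO list covered 0 of each. Echs1, Eci1 and Eci2 were chosen for a start inside an EnPGC-1 interval and near no DMSO interval. Their cover with EnPGC-1 and the 0 with DMSO thus follow from that choice and are no result. The promoter table held 6 of the 8 genes, and Acaa2 and Decr1 were not in it. All 6 had a GC box in the 250 bases, a motif in 43.1% of 21045 promoters of protein-coding genes. The GC box of Hadha lay in the stretch it shares with Hadhb and was the same site. CCAAT was present in 2 of 6, Hadh and Eci2, and in 35.6% of all promoters. None of the 6 held AAGGTCA, the monomer site of estrogen-related receptors (3.63% of all promoters), GGTCAAAGG, the core of a repeat bound by PPAR with RXR (0.280%), GCATGCGC, the core of the NRF1 palindrome (2.95%), CCGGAAG, bound by ETS factors (9.08%), or TGACGTCA, bound by CREB (1.94%). All motifs were searched on both strands, AAGGTCA and GGTCAAAGG can overlap each other, and a missing match says only that the letters are not in this window. The median GC content was 60.4% for the 6 genes and 55.6% for all promoters, and the median number of CG dinucleotides was 13.5 and 10.

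All 8 regions had more bases covered by H3K27ac intervals in the EnPGC-1 list than in the DMSO list. This held for 93.0% of the 21631 protein-coding genes treated in the same way, so the count of 8 of 8 is near the background and is no result about these genes. The whole DMSO list covered 41.3 Mb and the whole EnPGC-1 list 165 Mb. Over the 7 separate regions, 511702 bases in all, DMSO intervals covered 19047 bases (3.72%) and EnPGC-1 intervals 81595 bases (15.9%). The ratio was 4.28, beside 4.00 for the whole lists. Per gene, the median share of the region covered was 2.70% with DMSO and 16.8% with EnPGC-1, and the medians over all protein-coding genes were 1.99% and 8.37%. The median of all genes was exceeded by 5 of 8 genes with DMSO and by 6 of 8 with EnPGC-1, the difference being Hadhb.

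The genes differed widely from each other. Eci1 had the largest covered share in both lists, 11.7% with DMSO and 37.6% with EnPGC-1. Hadh had 5.64% and 25.0%, Hadha 5.99% and 19.6%, and Echs1 2.42% and 18.9%. Acaa2 followed with 2.98% and 14.6%. Hadhb had 0.519% and 9.24%, Decr1 0.512% and 3.72%, and Eci2 0.393% and 2.71%. Eci1 stood above 92.4% of all protein-coding genes in the EnPGC-1 list, whereas Eci2 stood above 24.9% and Decr1 above 31.4%. In the DMSO list these ranks were 93.9%, 22.3% and 24.4%. Hadha ranked lower with EnPGC-1 (71.6%) than with DMSO (77.0%). The ratio of EnPGC-1 to DMSO bases ran the other way in part: it was 3.22 for Eci1 and 3.27 for Hadha, 4.42 for Hadh, 4.90 for Acaa2, 6.89 for Eci2, 7.26 for Decr1, 7.82 for Echs1 and 17.8 for Hadhb. The last rests on 1 DMSO interval of 360 bases, and those of Eci2 and Decr1 on 1 DMSO interval each. A ratio of at least 4 was found for 6 of 8 genes and for 43.9% of the 17548 genes with a DMSO interval in the region. Without replicates it cannot be said which neighbours in these orders differ beyond their error.

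**Figure D1:**
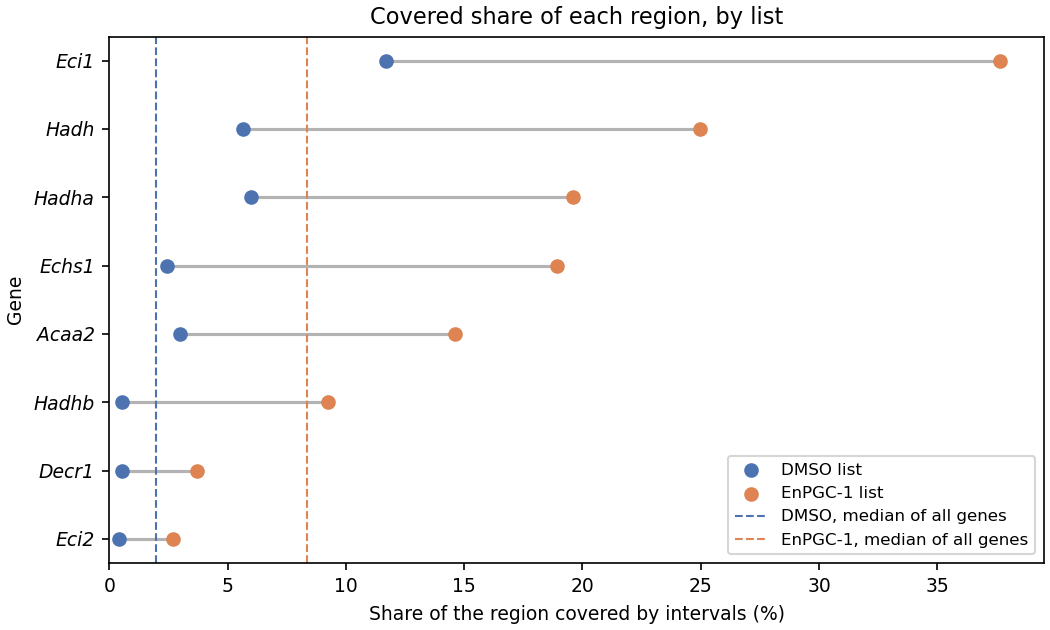
Share of each gene region (gene body and 20 kb on each side) covered by H3K27ac intervals, in percent, in the DMSO list (blue) and the EnPGC-1 list (orange), with the medians of all protein-coding genes as dashed lines. Eci1 reaches 37.6% in the EnPGC-1 list, and Hadhb, Decr1 and Eci2 lie below the DMSO median of 1.99% in the DMSO list.

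At the transcription starts, H3K27ac was listed for 2 of 8 genes after DMSO and for 8 of 8 after EnPGC-1. A start counted as marked when an interval lay within 1 kb of it, and for Acaa2 and Decr1, whose start was not in the table, when an interval lay within 1 kb of either gene end. By the same rule 35.5% of all protein-coding genes were marked with DMSO and 68.4% with EnPGC-1. Hadh and Acaa2 were marked in both lists. The other 6, Hadha, Hadhb, Echs1, Eci1, Eci2 and Decr1, had a mark with EnPGC-1 alone, as did 35.9% of all genes. None was marked in the DMSO list alone, as were 2.95% of all genes. Hadha and Hadhb owed their mark to the same interval.

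Among the 6 genes with a start in the table, 1 was marked in the DMSO list (33.5% of the 17274 genes with such a start), 6 with EnPGC-1 (67.3%) and 5 with EnPGC-1 alone (36.8%). The first base of the transcript lay inside an EnPGC-1 interval for 3 of the 6, Echs1, Eci1 and Eci2, and for 41.2% of all such genes. It lay inside a DMSO interval for 0 of the 6, and for 15.1% of all such genes. On the transcribed side the EnPGC-1 list covered, on average over the 6 genes, 43.7% of the first 1 kb, against 17.2% of the 1 kb before the start. All genes had 32.6% and 20.3%. In the DMSO list the 6 genes had 8.22%, from Hadh alone, and 0%, and all genes 10.4% and 6.52%. The interval between Hadha and Hadhb enters these means as bases after the Hadhb start and before the Hadha start.

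Part of the start marks came from EnPGC-1 intervals of lower score. When the EnPGC-1 list was reduced to as many of its highest-scoring intervals as the DMSO list held, 4 of 8 starts were marked: Echs1, Hadh, Eci1 and Decr1. The share of all genes marked in the EnPGC-1 list then was 32.4%, and 3 of the 8 genes, Echs1, Eci1 and Decr1, were marked in that list alone (14.9% of all genes). Acaa2 was then marked in the DMSO list alone, as were 17.9% of all genes. Hadha, Hadhb and Eci2 were marked in neither list, for which the share of all genes is not given here.

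**Figure D2:**
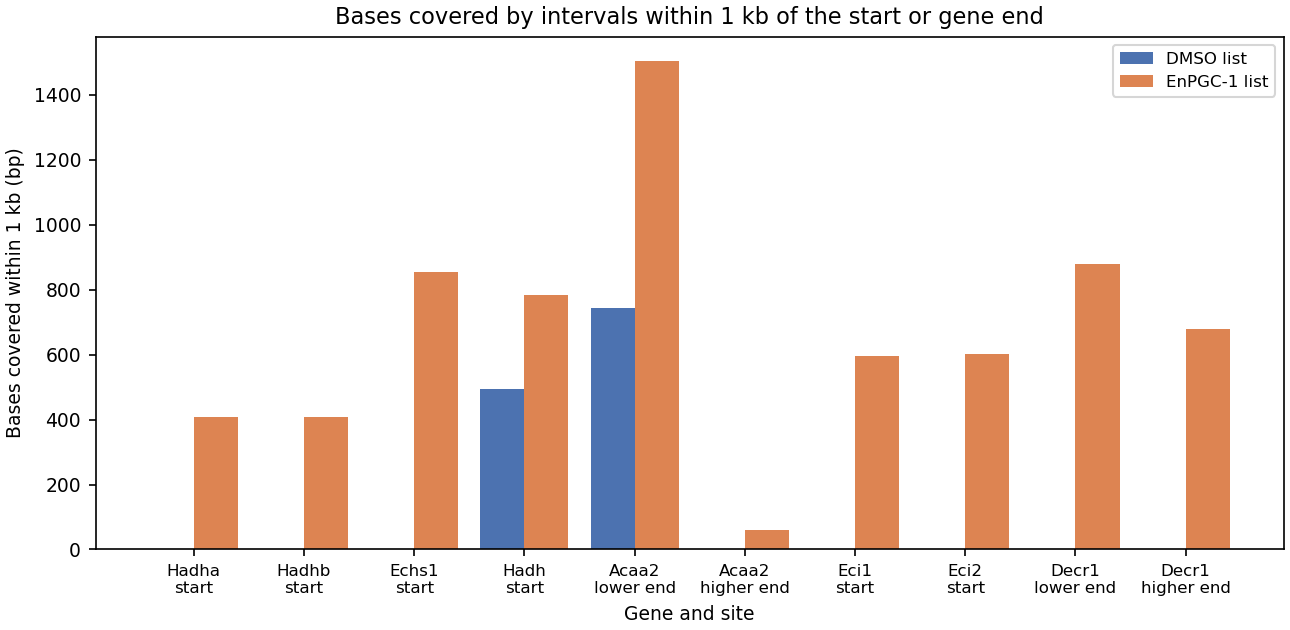
Bases covered by intervals within 1 kb of the transcription start, or of each gene end for Acaa2 and Decr1, in the DMSO list (blue) and the EnPGC-1 list (orange). Blue bars stand only at Hadh (493 bases) and at the lower end of Acaa2 (745 bases), and the orange bars reach from 59 to 1504 bases.

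At the trifunctional protein genes, the intervals of highest score lay far downstream of the starts, and 1 EnPGC-1 interval of low score lay near the shared promoter. Hadha (chr5:30119423-30154980, minus strand) and Hadhb (chr5:30155253-30184593, plus strand) have starts 273 bases apart. The only interval within 1 kb of either start was an EnPGC-1 interval at chr5:30155458-30155864, 407 bases long, on the Hadhb side. Its score of 2.12 exceeded that of 14.3% of EnPGC-1 intervals, and the DMSO list covered 0 bases within 5 kb of both starts. Scores are the authors' and were taken as −log10 q-values, which rank intervals within 1 list only.

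In the Hadha region the numbers were 9 DMSO and 19 EnPGC-1 intervals, with 4527 and 14800 covered bases. The highest-scoring interval of the EnPGC-1 list, at chr5:30119106-30120487 with a score of 5.87, lay across the 3′ end of Hadha and overlapped a DMSO interval. The highest of the DMSO list, at chr5:30116666-30117127 with a score of 5.11, lay inside the neighbouring gene Garem2, which runs towards Hadha. It also overlapped an EnPGC-1 interval, and it was the highest score of any DMSO interval in the 8 regions. In the Hadhb region the DMSO list had a single interval, at chr5:30173210-30173569 within the gene, with a score of 1.76. The EnPGC-1 list had 10, of which 1 overlapped it. The highest-scoring of them (6.82, chr5:30194934-30195583) lay in Adgrf3, beyond the 3′ end of Hadhb. The 2 regions share 39728 bases, with 1 DMSO interval and 7 EnPGC-1 intervals, and these intervals are not independent evidence for both genes.

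At Echs1 and Hadh, the hydratase and the dehydrogenase of the cycle for shorter chains, the EnPGC-1 list had intervals at the start and along the gene. Echs1 (chr7:140105710-140116421, minus strand) had 3 DMSO intervals in its region, with 1226 covered bases, and 15 EnPGC-1 intervals, with 9589. Its start lay inside an EnPGC-1 interval at chr7:140115849-140116702 with a score of 4.75, and the DMSO list covered 0 bases within 5 kb of it. The highest-scoring DMSO interval, at chr7:140110308-140110696 with a score of 4.52, lay within Echs1 and above 95.5% of DMSO intervals. The other 2 of the 3 had no EnPGC-1 partner. Of the gene body of Echs1, 27.6% was covered with EnPGC-1 and 3.63% with DMSO. The neighbours Prap1, Fuom and Paox were also marked at the start in the EnPGC-1 list alone. An EnPGC-1 interval at chr7:140125373-140126236 lay within 1 kb of a tabulated Paox start. The interval over the Echs1 start also lies inside the gene model of Paox, which begins at chr7:140115735. The highest EnPGC-1 score of the region (5.87) was that of an interval overlapping Fuom.

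Hadh (chr3:131233419-131272101, minus strand) had 8 DMSO intervals with 4439 covered bases and 26 EnPGC-1 intervals with 19634, the largest number of EnPGC-1 intervals among the 8 regions. It was the only gene of the 6 with a tabulated start that had a DMSO interval within 1 kb of it. That interval, at chr3:131271308-131271800 with a score of 2.54, lay just inside the gene. An EnPGC-1 interval at chr3:131271317-131272100 with a score of 5.87 overlapped it and ended 1 base inside the start. An EnPGC-1 partner was found for 6 of the 8 DMSO intervals, while 20 of the 26 EnPGC-1 intervals had no DMSO partner. The other side of the region reaches into the 3′ part of Lef1, which encodes a transcription factor of T cells. The highest-scoring interval of each list (4.00 for DMSO, 6.63 for EnPGC-1) lay in Lef1 or across its 3′ end, so the values of the Hadh region include acetylation of that gene.

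At Acaa2, the thiolase gene (chr18:74779212-74806207), both lists marked the gene end of lower coordinate. The DMSO interval, at chr18:74778396-74779140 with a score of 2.87, lay within the EnPGC-1 interval at chr18:74778203-74779715, which had a score of 3.31 and 3 summits. Within 1 kb of this end, 745 bases were covered with DMSO and 1504 with EnPGC-1. At the other end these values were 0 and 59. Of the gene body, 0 bases were covered with DMSO and 2372 (8.79%) with EnPGC-1. Over the region, 3 DMSO intervals and 16 EnPGC-1 intervals were listed. The highest EnPGC-1 score (7.05) lay in the neighbouring gene Myo5b, at chr18:74760512-74761174. The highest DMSO score (4.00) lay outside genes, at chr18:74822921-74823501, with no EnPGC-1 partner.

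The auxiliary genes for unsaturated fatty acids showed both extremes of covered share. Eci1 (chr17:24426683-24439316, plus strand) had 9 DMSO intervals with 6158 bases and 21 EnPGC-1 intervals with 19812. Of its gene body, 55.7% was covered with EnPGC-1 and 10.3% with DMSO, and both were the highest values among the 8 genes. The start of Eci1 carried the EnPGC-1 interval with the top score of its region, at chr17:24426499-24427093, with a score of 6.43 that exceeded 92.2% of the list, and it overlapped no DMSO interval. The region is dense in genes, and 2807 of its DMSO bases and 5003 of its EnPGC-1 bases lay in E4f1. The highest DMSO score of the region, 3.78 at chr17:24446800-24447094, also lay in E4f1. With equal numbers of intervals, the difference at Eci1 turned to -1177 bases, that is, more bases in the DMSO list. That setting gave more DMSO bases at 2 of the 8 genes, and the share of all genes is not given here.

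Eci2 lies at chr13:34977748-35027115, a gene model that reaches upstream of the tabulated start at 34994144, minus strand. Its region had 1 DMSO interval of 351 bases and 5 EnPGC-1 intervals of 2420 bases together. The start lay inside an EnPGC-1 interval at chr13:34993701-34994301, with a score of 4.10, the highest of the region in that list but above only 61.1% of all EnPGC-1 intervals. The single DMSO interval, at chr13:34981491-34981841 within the gene, had a score of 4.00, above 91.5% of the DMSO list, and an EnPGC-1 partner. With equal numbers of intervals no EnPGC-1 interval was kept in the region, and the difference was -351 bases. Eci3, the neighbouring isomerase gene of the peroxisome, was marked at the start in the EnPGC-1 list alone. Decr1 (chr4:15917240-15945377) also had 1 DMSO interval, of 349 bases, at chr4:15914921-15915269 outside genes with a score of 1.36, and 5 EnPGC-1 intervals, of 2534 bases. An EnPGC-1 interval at chr4:15944936-15945615 lay across the gene end of higher coordinate with a score of 7.68, the highest of any EnPGC-1 interval in the 8 regions and above 97.3% of that list. The lower end had an EnPGC-1 interval at chr4:15916282-15917161 with a score of 3.69. Neither overlapped a DMSO interval.

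**Figure D3:**
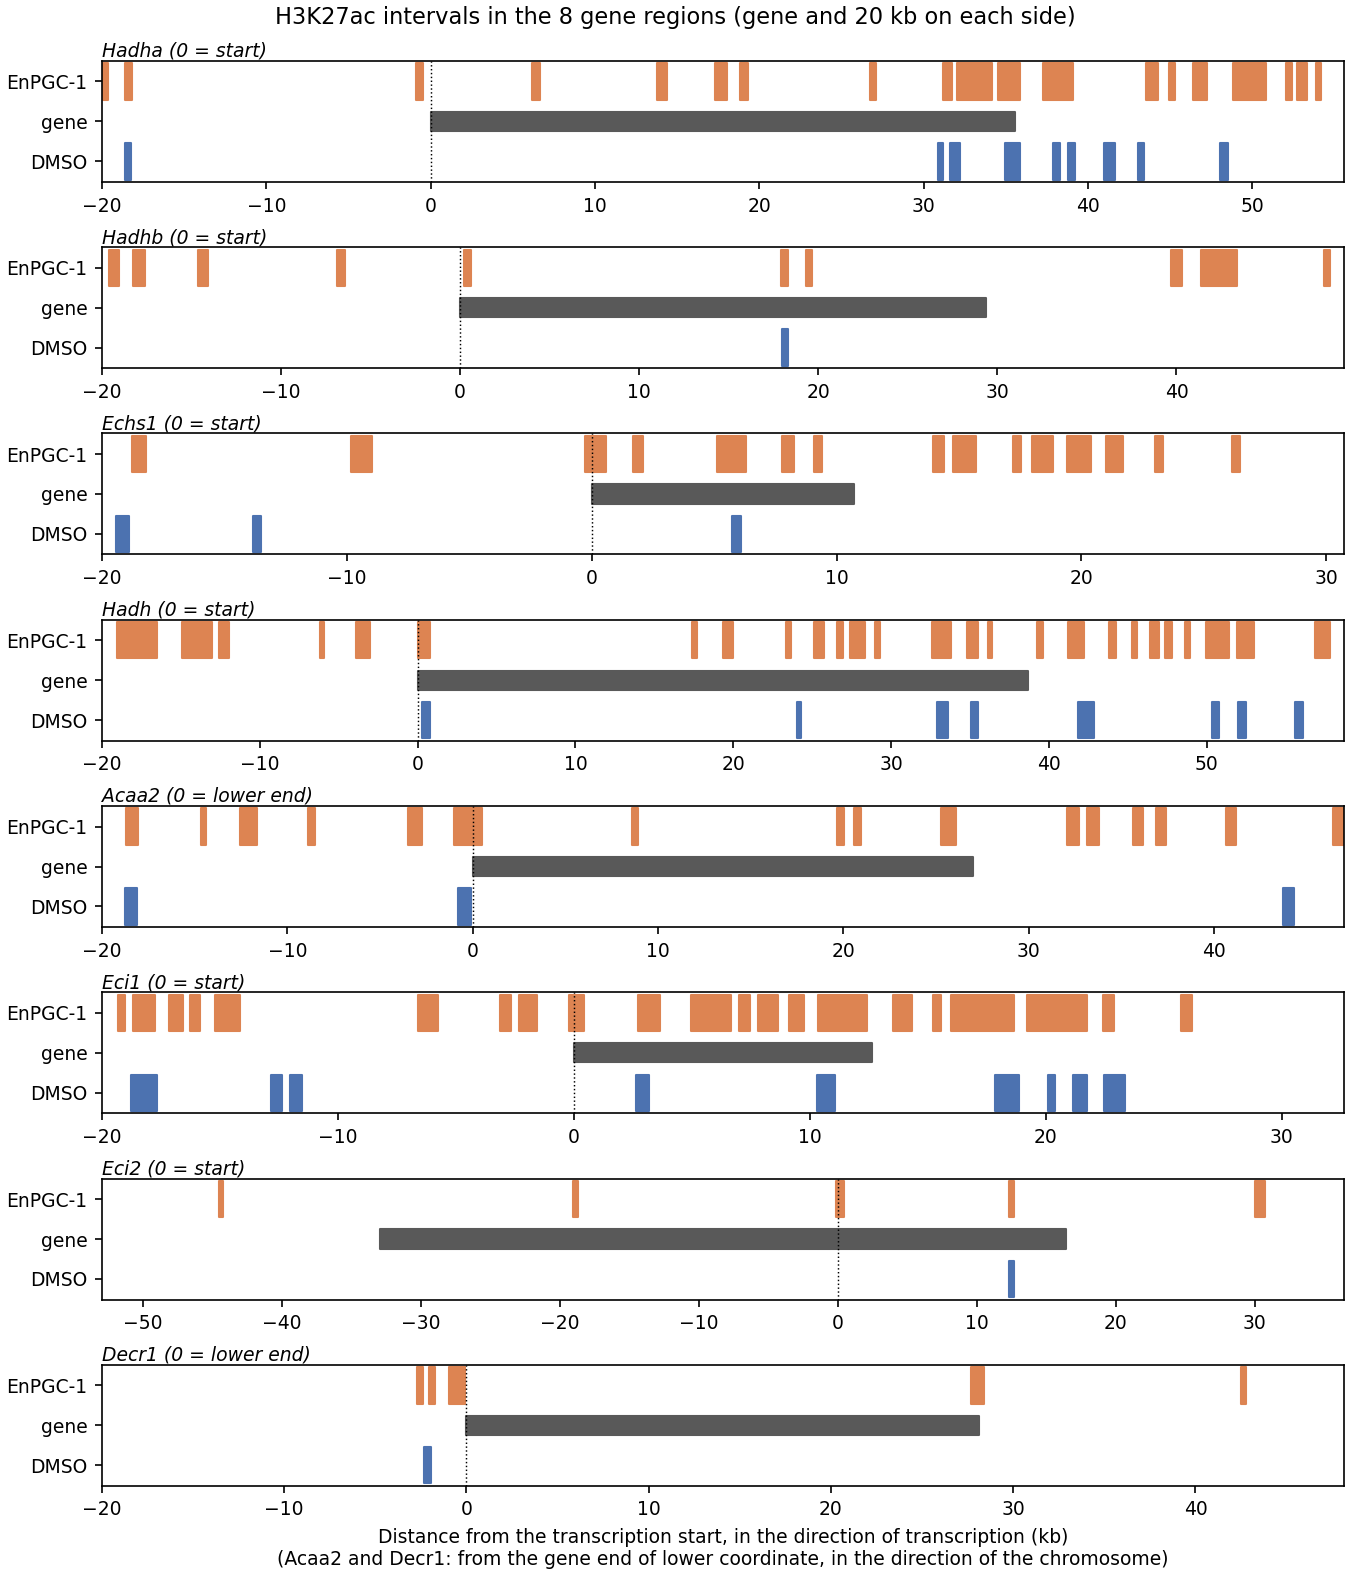
Intervals of the DMSO list (blue) and the EnPGC-1 list (orange) in the 8 regions, with the gene body in dark grey, against the distance in kb from the transcription start in the direction of transcription. For Acaa2 and Decr1 the distance is from the gene end of lower coordinate along the chromosome. Eci1 and Hadh are densely filled in the EnPGC-1 list with 21 and 26 intervals, while Eci2 and Decr1 have 5 each.

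An EnPGC-1 partner, sharing 1 bp or more, was found for 23 of 34 DMSO intervals (67.6%, 95% exact Clopper-Pearson interval 49.5 to 82.6), and a DMSO partner for 22 of 110 EnPGC-1 intervals (20%, 13.0 to 28.7). Over the whole lists these shares were 73.7% and 23.1%, inside both ranges, which cover counting error only. Among intervals at or above the median score of their list, 45.5% of the DMSO intervals had a partner, and with equal numbers of intervals 38.2% of DMSO and 31.6% of EnPGC-1 intervals did. When 50% of an interval had to be covered by the other list, 8.18% of EnPGC-1 intervals had a partner. The shares of the whole lists under these 3 settings are not given here, so these values are no result about the regions. The 22 shared EnPGC-1 intervals were wider than the 88 found in that list alone, with medians of 1039 and 526.5 bp, as in the whole list (698 and 461 bp). A wider interval is more likely to share 1 bp with another, so this difference follows at least in part from the rule. The 11 DMSO intervals without a partner had a median score of 1.36, against 2.58 for the 23 shared. In the whole DMSO list the medians of both kinds were 2.16. More than 1 summit was recorded in 31 of 110 EnPGC-1 intervals (28.2%) and in 0 of 34 DMSO intervals, beside 20.7% and 3.42% of the whole lists.

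By position, 9 EnPGC-1 intervals lay within 1 kb of a start or, for Acaa2 and Decr1, an end of the 8 genes, and 35 lay elsewhere within them. A further 10 lay within 1 kb of the start of another protein-coding gene, 30 within the body of such a gene and 26 outside genes. The DMSO intervals were divided as 2, 11, 3, 14 and 4 in the same order. Thus 44 of 110 EnPGC-1 intervals and 13 of 34 DMSO intervals lay at or in the 8 genes themselves. The genes' own share of the bases in the regions was not set beside these counts, so they are no result about the genes. Scores in the regions reached 5.11 with DMSO and 7.68 with EnPGC-1, whereas the whole lists reached 179 and 541. A score of at least 3.50 was found for 8 of the 34 DMSO intervals (23.5%) and for 15.4% of the whole DMSO list. A score of at least 5.87 was found for 11 of the 110 EnPGC-1 intervals (10%) and for 12.4% of that whole list. Scores at or above the median of the list were found for 22 of 34 DMSO intervals (64.7%, 46.5 to 80.3) and for 54 of 110 EnPGC-1 intervals (49.1%, 39.4 to 58.8). Because of ties the whole lists had 60.6% and 50.7% of their intervals there, inside both ranges.

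Other genes of fatty acid oxidation and related enzymes, some of them of amino acid breakdown, were described beside the 8 genes. Over 46 other genes in 5 lists, 18 starts were marked with DMSO, 39 with EnPGC-1, 24 with EnPGC-1 alone and 3 with DMSO alone. For all protein-coding genes the shares were 35.5%, 68.4%, 35.9% and 2.95%, and these are also the background of the counts per list below. The median covered share of these 46 regions was 2.55% with DMSO and 9.90% with EnPGC-1. In the carnitine shuttle, which brings fatty acids into mitochondria, 3 of 6 starts were marked with DMSO and 5 with EnPGC-1, with median covered shares of 7.12% and 24.7%. Crat, the carnitine acetyltransferase gene, had 7.05% and 39.8% and Cpt1a, the carnitine palmitoyltransferase gene, 10.9% and 32.7%. Slc25a20, the carnitine carrier gene, had 4.16% and 6.51%.

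Among 15 genes of acyl-CoA dehydrogenases and electron transfer, some of which serve the first oxidation, 7 and 13 starts were marked, with median shares of 3.07% and 11.25%. Acadvl had 9.12% and 41.2%, Etfb 3.94% and 32.4%, and Etfdh 1.102% and 2.24%. The start of Etfb was marked in the DMSO list alone. The 8 genes listed as other mitochondrial hydratases, dehydrogenases and thiolases had 2 and 7 marked starts, and medians of 1.29% and 4.81%. The name of this list is loose, as it also holds Hibch, a hydrolase gene, and Echdc1, a decarboxylase gene. Auh, a hydratase of leucine breakdown, had 5.19% and 31.4%, and Echdc3 had 1.74% and 9.60%. Hibadh, a dehydrogenase of valine breakdown, had 1.46% and 1.17%. It was the only 1 of the 46 with more bases in the DMSO list, beside 326 of the 21631 protein-coding genes.

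In peroxisomal beta-oxidation, which runs the same chemistry in another organelle, 5 and 11 of 12 starts were marked and the medians were 2.96% and 17.4%. The peroxisomal thiolase gene Acaa1b had 12.7% and 41.2%, Ech1 had 2.00% and 27.3%, and Eci3 had 1.25% and 2.85%. The 5 genes of fatty acid activation had 1 and 3 marked starts and medians of 1.39% and 5.08%, with Acsl6 at 2.85% and 16.4%, Acsl1 at 2.28% and 10.9% and Acsl3 at 1.39% and 1.80%. Nearest to the median of the 8 genes, by the distance between covered shares over the 2 lists, which are only 2 points, were Acsl6, Ivd (3.46% and 19.2%) and Gcdh (4.90% and 19.6%). No difference between these lists was tested.

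**Figure D4:**
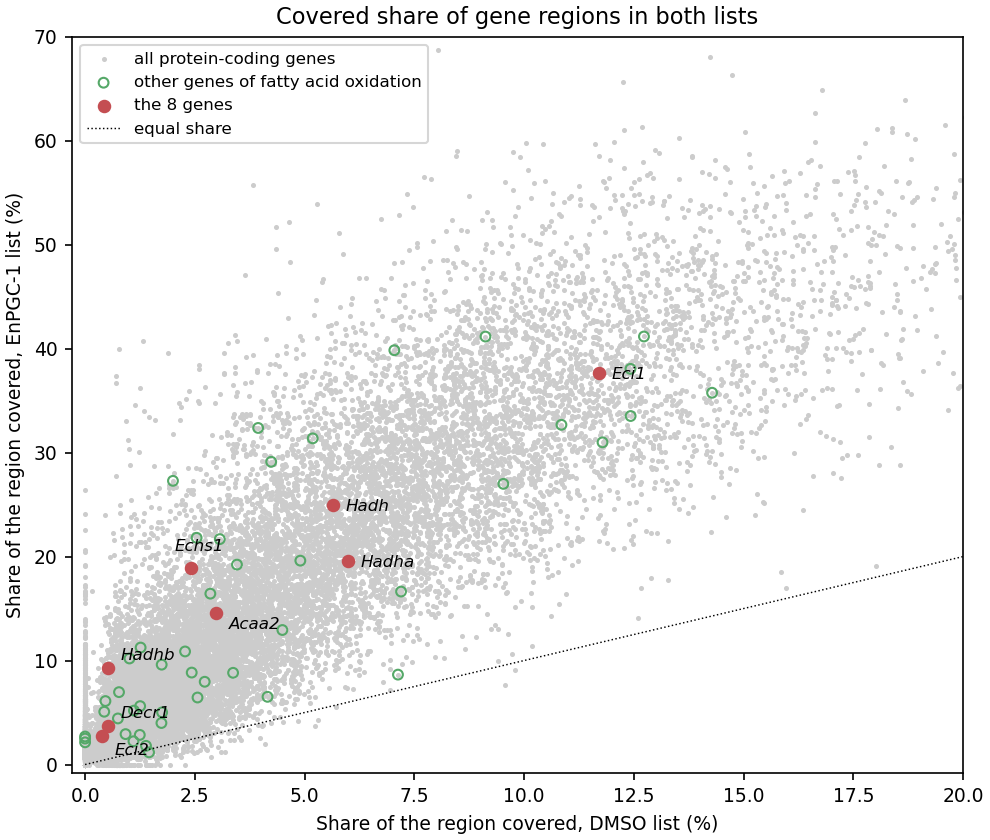
Share of the gene region covered in the EnPGC-1 list against that in the DMSO list, in percent, for all protein-coding genes (grey), 46 genes of the 5 other lists (green circles) and the 8 genes (red). The green circles, labelled as other genes of fatty acid oxidation, include genes of amino acid breakdown. The 8 genes lie within the cloud and above the dotted line of equal shares, from Eci2 at 2.71% to Eci1 at 37.6% in the EnPGC-1 list, and 88 genes lie beyond the axes.

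By the same start rule, of 8 CD8 T cell marker genes, 3 were marked at the start with DMSO and 6 with EnPGC-1. All protein-coding genes had 35.5% and 68.4%. Cd8b1, Cd3e and Lck were marked in both, and Cd3d and Ptprc in neither. The B cell gene Cd79a and the myeloid gene Csf1r were marked in both lists, so 1 of 3 B cell and 1 of 3 myeloid markers had a DMSO mark, and 2 of 3 and 1 of 3 an EnPGC-1 mark. The part of other cells in the intervals at the 8 genes was not tested.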

How the data were processed

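The 8 samples formed 5 groups by treatment and antibody, and the 2 peak lists of the H3K27ac groups were used. Per the submitters' processing notes, the build was mm10 and the software included MACS2 2.2.2.20160309, Bowtie 1.1.2, Trimmomatic 0.38, ChIPseeker 11.16.1 and Picard 0.118. For the parameters, the control, the pooling of replicates and whether replicates are separate animals or cultures, the answer is not given in the sources used here. IgG and input samples were not used here. The deposited score was read as −log10 of a q-value, from its lowest values of 1.31 in both lists. The 84538 DMSO and 329623 EnPGC-1 entries became 81522 and 253423 intervals after entries with the same coordinates were combined at their highest score. Genes and starts came from RefSeq tables (GRCm38.p6) with 21631 protein-coding genes on 20 chromosomes, 17274 of them with a start. Regions are printed 1-based.

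The members and lists were chosen with earlier results of these data known. The 8 genes, the intervals at their starts, the highest-scoring interval of each list, and, per pathway list, the 2 genes with the largest and 1 with the smallest difference in covered share were named. Neighbouring genes and single intervals beyond this were picked with values in view. The alternatives tried were a score limit, equal numbers, width, merging, and other windows and overlaps. Python 3.11.15, pandas 2.3.3 and scipy 1.17.1 were used, and the interval arithmetic was tested on simulated data.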

Additional observations from a re-analysis of the deposited data

How the results depend on the processing

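No paired analysis was possible because each treatment has 1 peak list that does not separate its replicates, and for the same reason no replicate could be left out. The ratio of covered bases over the regions (4.28) lay between 3.47 and 5.27 under 6 alternatives. It was 3.81 at or above the median score, 5.27 without intervals under 500 bp and 4.69 after merging. The whole lists gave 3.66, 5.40 and 4.40 in the same order. With equal numbers of intervals the ratio was 1.85, where the whole lists gave 1.65. That setting keeps EnPGC-1 intervals with scores down to 4.21 and every DMSO interval. It also turned the difference to -1177 bases at Eci1 and -351 at Eci2, marked 4 EnPGC-1 starts in place of 8, and gave shared portions of 38.2% of DMSO and 31.6% of EnPGC-1 intervals. The share of all genes at which the direction turned with equal numbers is not given here. No other alternative turned the direction at any of the 8 genes. At or above the median score, 45.5% of DMSO intervals were shared, and 8.18% of EnPGC-1 intervals were when 50% of the interval had to be covered. For none of these shared portions is the value of the whole lists under the same setting given here. The 2 DMSO starts became 1 without intervals under 500 bp, where 18.4% of all genes were marked. They became 4 within 5000 bp, a wider window for which the share of all genes is not given here. In an alternative chosen after seeing the data, 1 start was marked among genes with a tabulated start, beside 33.5% of all such genes. The depth behind the lists is unknown.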
